A study of Mus musculus with 8 samples.

Results

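Genes of DNA replication and mitosis were followed in wild-type and Tut7-/- bone marrow-derived macrophages (BMDMs) with and without lipopolysaccharide (LPS). The set is a list of 56 genes of 24539 in the deposited table. The genes were named by symbol for what their proteins do, by a rule that uses no measured value but was drawn up with earlier results of these data known, and the list holds 26 replication genes (12 of the replicative helicase and its loaders, 9 of the sliding clamp, its loader and the polymerases, 5 of nucleotide supply), 7 regulators of the step from G1 to S phase, 19 genes of G2 and mitosis, and 4 genes of chromatin and microtubule proteins. All 56 passed the filter on low counts, as did 11501 genes in total. RNA was sequenced from 8 libraries, 2 for each of 4 groups: untreated wild type, wild type with LPS for 4 h, untreated Tut7-/- and Tut7-/- with LPS for 4 h. All cells came from male C57BL/6 mice aged 7 weeks, and in each group bone marrow was grown in L929 cell-conditioned medium and then in M-CSF, the growth factor of macrophages, before treatment. The knockout mice were made by CRISPR/Cas9 with a pair of guides to introns of Tut7, so that the loss is not limited to macrophages. Tut7 encodes an enzyme that adds uridines to the 3′ ends of RNAs. Separate mice are not named for the replicates, so the p-values measure the spread between libraries, which may be technical.

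A cell copies its DNA once per division. In G1 the loaders Cdc6 and Cdt1 place a ring of Mcm2 to Mcm7 proteins on each origin, and in S phase Cdc45 and the GINS proteins turn that ring into a working helicase. Cyclin E, with Cdk2, opens S phase by releasing E2F factors from the retinoblastoma proteins, and E2F factors switch on many replication genes, whereas the genes of mitosis are switched on later by Foxm1 and related factors. BMDMs in M-CSF still divide, and LPS is known to stop macrophages from dividing. In bulk RNA, fewer cycling cells and less of an RNA in each cycling cell cannot be told apart.

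The libraries held 3767900 to 9394632 counts. Tut7, listed under its older symbol Zcchc6, had 427 and 615 counts in untreated wild type, 1162 and 716 after LPS, and 17 to 23 in each of the 4 Tut7-/- libraries. Macrophage markers summed to between 15324 and 39209 CPM in every library and none of the 8 was at 0, whereas markers of granulocyte progenitors, which also divide in bone marrow culture, summed to 1.96 to 4.18 CPM over 10 genes, with Mpo and Elane at 0 in all 4 groups. Markers of stem and progenitor cells summed to 234 and 357 CPM in untreated wild type, 119 and 134 after LPS, 158 and 307 in untreated Tut7-/- and 149 and 153 in Tut7-/- with LPS, and their part in the changes described here was not tested. Only 4 of these 8 markers passed the filter, and Gata2, Flt3 and Hoxa9 were at 0 in both untreated wild-type libraries. CPM are read counts scaled to a common library size, here with the TMM factors, which correct for a few genes taking a large share of the reads.

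In wild-type BMDMs most replication and mitosis genes fell within 4 h of LPS. Of the 56 genes, 36 fell and 10 rose at an adjusted p under 0.05, and 10 were not called, against 30.4% lower and 27.0% higher among all genes tested. The median log2 fold change was -1.78 over the 56 genes and -0.17 over all genes. Log2 fold changes were -3.83 and -1.88 for the mitotic kinase genes Aurkb and Plk1, -3.41 for the ribonucleotide reductase subunit gene Rrm2 and -2.85 for the S phase factor gene E2f1. Against that, the gene of the CDK inhibitor p21, Cdkn1a, rose by 4.50 and the cyclin E gene Ccne1 by 3.02. These tests used edgeR's quasi-likelihood fit with Benjamini-Hochberg adjustment over all 11501 genes, as did all tests below unless another is named.

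In Tut7-/- BMDMs, whose LPS comparison rests on its own untreated libraries, 35 genes fell, 9 rose and 12 were not called, against 33.2% lower and 34.8% higher among all genes, with a median of -1.44 for the set and -0.07 for all genes. Called in both genotypes were 33 genes that fell and 9 that rose (Mcm6, Mcm10, Rfc3, Tyms, Ccne1, Cdkn1a, Mki67, Cenpe and Tpx2), and no gene was called in opposite directions. Top2a, Kif11 and Hmgb1 fell and Hmgb2 rose with a call in wild type and none in Tut7-/-, and Cdt1 and Gins2 fell with a call in Tut7-/- and none in wild type, a split that changed with the correction for transcript length and GC content given below. Called in neither were Gins1, Pcna, Rfc5, Pola1, Ccne2, Ccnd1, Myc and Bub1.

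TMM scaling matters for the size of these changes, because LPS-treated libraries had TMM factors of 0.776 to 0.81 and untreated ones of 1.05 to 1.46. Scaled by library size alone, the median of all genes moved by -0.83 in the wild-type and by -0.56 in the Tut7-/- LPS comparison. In wild type 43 of the set then fell and 5 rose, and of all genes 6595 fell and 1755 rose, where TMM scaling gave 3491 and 3107. The 7 further genes called lower in wild type were Cdt1, Gins2, Pcna, Rfc5, Pola1, Ccnd1 and Bub1, so that the direction of Pcna and Ccnd1, positive with TMM, turned with the scaling. In Tut7-/- 37 of the set fell and 6 rose.

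GC content of the transcripts moved with the LPS changes too, more so in Tut7-/-. The Spearman correlation of the log2 fold change with GC content was -0.26 over 11274 tested genes and -0.17 over the 56 in wild type, and -0.50 and -0.41 in Tut7-/-, where genes of the same libraries share their depth and base composition. After a correction for length and GC content within each library, 38 of the set fell and 11 rose in wild type, where Hmgb2 lost its call, Pola1 and Bub1 were called lower, and Ccnd1 and Myc higher. In Tut7-/- 41 fell and 6 rose. Lost there were the calls of Mcm6, Cdt1, Gins2, Tyms, Mki67 and Cenpe. Called lower in their place were Pcna, Pola1, Ccne2, Top2a, Bub1, Kif11, Hmgb1 and Hmgb2, and Ccnd1 was called higher. So Top2a, Kif11 and Hmgb1 fell in both genotypes after the correction, Top2a by 1.82 in wild type and 1.79 in Tut7-/- and Kif11 by 3.05 and 1.55.

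**Figure D1:**
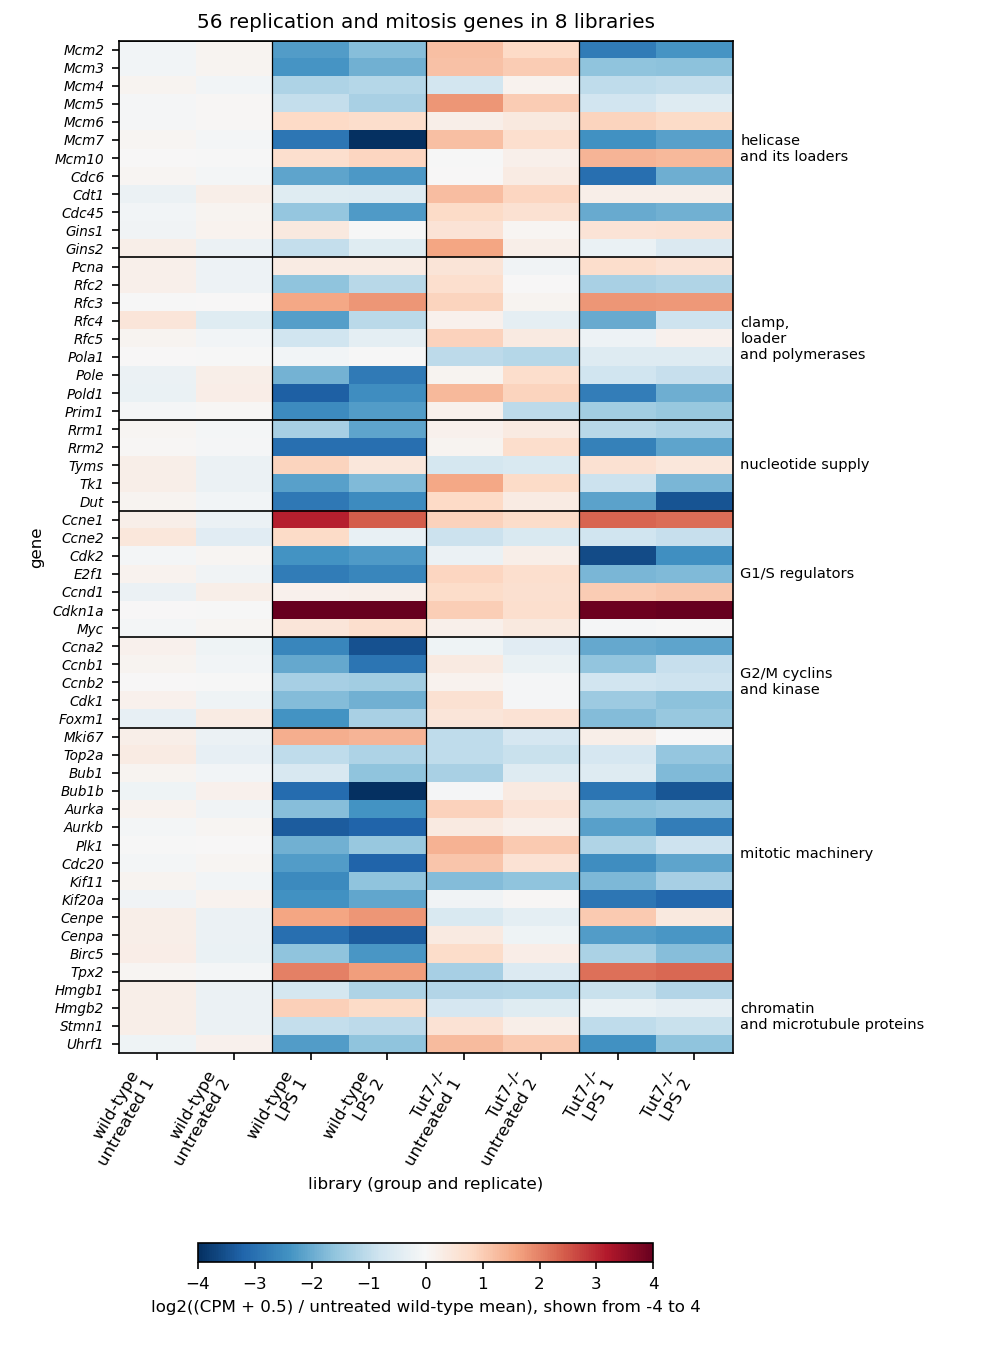
Level of each of the 56 genes (rows, grouped by role) in each of the 8 libraries (columns), as log2 of CPM plus 0.5 relative to the mean of the untreated wild-type libraries. Both LPS-treated pairs are mostly blue (lower), with red rows at Cdkn1a, Ccne1, Rfc3, Cenpe and Tpx2, and the wild-type LPS pair alone is clearly red at Mki67.

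The start regions of these genes carry short motifs that differ by role, and 4 of them are shown because their genes stand for the classes described next. For 42 of the 56 genes RefSeq (build GRCm38.p6) gave a promoter window of 250 bases before to 50 bases after a transcript start, and the first window of each gene was searched on both strands. The motifs were the E2F motif (TTTCCCGC or TTTGGCGC), the cell cycle homology region (CHR, TTTGAA or TTCGAA) and the CCAAT box (CCAAT). Matches of different motifs can share at most 1 base. Below are the 250 bases before the start, 5′ to 3′ on the strand of the gene, with every motif match in capitals. All 4 stretches lie outside annotated genes: Mcm6 at chr1:128359706-128359955 (minus strand), Cdc20 at chr4:118437344-118437593 (minus strand), Kif11 at chr19:37376132-37376381 (plus strand) and Hmgb2 at chr8:57511593-57511842 (plus strand).
Mcm6: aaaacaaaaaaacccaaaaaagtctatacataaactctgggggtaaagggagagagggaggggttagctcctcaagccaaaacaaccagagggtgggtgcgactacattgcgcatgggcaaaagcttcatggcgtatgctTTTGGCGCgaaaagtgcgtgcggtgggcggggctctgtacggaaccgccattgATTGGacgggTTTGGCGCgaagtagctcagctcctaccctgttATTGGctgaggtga
Cdc20: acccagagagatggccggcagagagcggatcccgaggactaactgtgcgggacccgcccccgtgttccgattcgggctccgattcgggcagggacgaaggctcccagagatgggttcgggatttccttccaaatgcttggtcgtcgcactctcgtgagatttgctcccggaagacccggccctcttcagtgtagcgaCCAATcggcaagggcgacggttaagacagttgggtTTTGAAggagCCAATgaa
Kif11: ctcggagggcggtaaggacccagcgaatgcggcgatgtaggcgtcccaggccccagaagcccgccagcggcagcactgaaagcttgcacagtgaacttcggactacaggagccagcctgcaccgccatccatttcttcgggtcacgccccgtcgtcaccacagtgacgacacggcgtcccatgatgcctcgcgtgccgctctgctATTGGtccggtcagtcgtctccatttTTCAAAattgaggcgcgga
Hmgb2: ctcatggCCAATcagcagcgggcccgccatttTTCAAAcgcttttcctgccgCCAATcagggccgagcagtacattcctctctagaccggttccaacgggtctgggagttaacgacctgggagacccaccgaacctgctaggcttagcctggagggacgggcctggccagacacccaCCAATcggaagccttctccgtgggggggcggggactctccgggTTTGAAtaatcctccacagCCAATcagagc

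Mcm6, called higher after LPS in both genotypes, showed the E2F motif TTTGGCGC starting 110 and 47 bases before the start. Cdc20 and Kif11, which both fell in wild type, had a CHR 18 and 19 bases before the start, and a CCAAT box 53 and 45 bases before it, with another 8 bases before the start of Cdc20. Hmgb2, which was higher after LPS in wild type, had CHR matches 218 and 30 bases before the start and 4 CCAAT boxes. These 4 genes were chosen after their values were seen.

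Over the windows, the E2F motif was in 6 of 9 for the helicase and its loaders, in 3 of 7 for the clamp, loader and polymerases, in 0 of 5 for nucleotide supply, in 1 of 4 for the G1/S regulators, in 0 of 3 for the G2/M cyclins and kinase, in 0 of 11 for the mitotic machinery and in 0 of 3 for the chromatin and microtubule proteins, where 1.63% of all 27025 windows and 3.21% of the 9022 windows of tested genes held it. The CHR was in 9 of 11 windows of the mitotic machinery, in 2 of 3 of the G2/M cyclins and kinase, in 3 of 9 of the helicase group, in 1 of 7 of the clamp group, in 1 of 3 of the chromatin group and in none of those of nucleotide supply and the G1/S regulators, against 19.4% of all windows and 13.9% of those of tested genes. CCAAT boxes were in 10 of 11 mitotic windows and in 7 of 9 helicase windows, against 37.9% and 39%. Split by the LPS response in wild type, the E2F motif was in 2 of 9 windows of genes that rose and in 6 of 28 of genes that fell, and the CHR in 3 of 9 and 12 of 28. A match says only that these letters stand in the window.

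**Figure D2:**
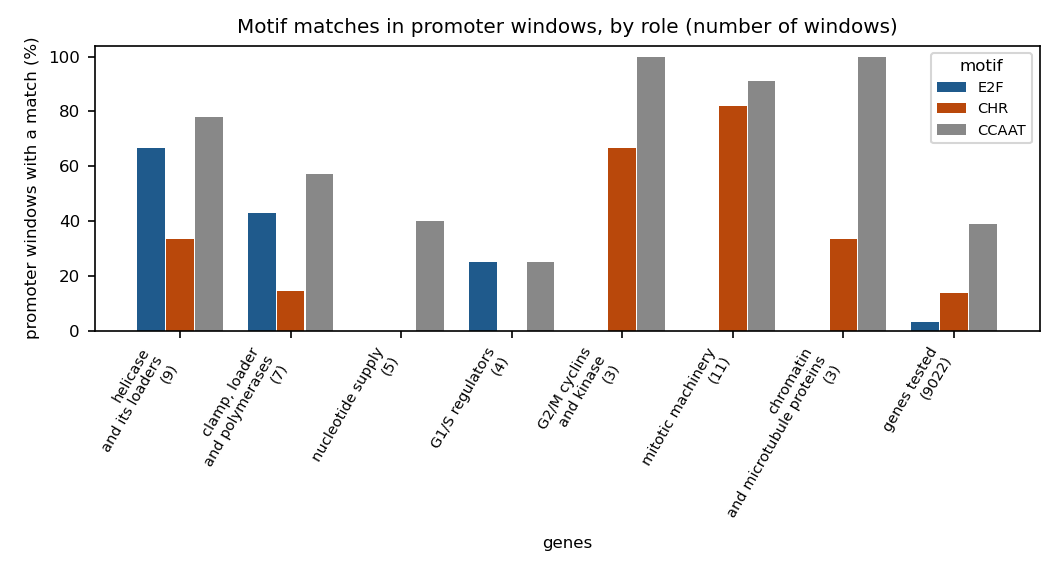
Share of promoter windows (%) with at least 1 match to the E2F motif, the CHR or the CCAAT box, for each role and for all tested genes, with the number of windows in brackets. E2F matches are in 66.7% of helicase and loader windows and 0% of mitotic machinery windows, and CHR matches in 33.3% and 81.8%.

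Among the helicase genes, the subunits of a single ring moved apart. Mcm7 was at 27.3 and 24.5 CPM in untreated wild type and at 3.05 and 0.655 after LPS, a log2 fold change of -3.65 ± 0.425 (SE, adjusted p = 2.7e-06). Mcm6 was at 68 and 71.5 CPM before and 121 and 114 after LPS, a change of 0.75 ± 0.198 (adjusted p = 0.0045). The ring gene that fell furthest and the ring gene that rose did not overlap between treated and untreated libraries, in opposite directions. How many of all genes were separated in this way was not counted. The rise of Mcm6 turned to -0.08 when libraries were scaled by size alone and lost its call without wild-type LPS replicate 1. In Tut7-/- Mcm7 went from 59.7 and 41.8 CPM to 4.43 and 5.35, a change of -3.36 ± 0.346 (adjusted p = 5.5e-07). Mcm6 went from 82.1 and 91 CPM to 129 and 118 there, a change of 0.52 ± 0.196 (adjusted p = 0.029), and this turned to -0.05 with library-size scaling and to -0.23 after a correction for the length and GC content of transcripts. Its call in Tut7-/- held in 7 of 19 alternatives and was lost without untreated Tut7-/- replicate 1 or any 1 of the 4 LPS-treated libraries. The other ring genes, Mcm2, Mcm3, Mcm4 and Mcm5, fell in both genotypes, by 1.14 to 2.25 on the log2 scale in wild type and by 0.80 to 3.81 in Tut7-/-. The wild-type call of Mcm5 was lost without LPS replicate 2, and the Tut7-/- call of Mcm4 without untreated replicate 2 or either LPS library.

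Of the factors that load and fire the helicase, Cdc6 and Cdc45 fell and Mcm10 rose. Cdc6, a loader, fell in wild type from 34 and 38 counts to 2 and 1 after LPS, a level 8.96-fold lower (exact 95% interval 2.94 to 44.4, counting error only). Cdc45 was at 3.19 and 3.77 CPM before and 0.87 and 0.328 after LPS (log2 fold change -2.40 ± 0.584, adjusted p = 0.0026). Both were low in every library and lower in both LPS-treated wild-type libraries than in either untreated one, a separation not counted over all genes. Mcm10, which joins the helicase as it fires, rose from 7.48 and 7.19 to 12 and 13.8 CPM in wild type (0.80 ± 0.282, adjusted p = 0.024) and from 7.25 and 8.5 to 19.5 and 18.8 CPM in Tut7-/- (1.27 ± 0.264, adjusted p = 5.7e-04). The wild-type rise of Mcm10 turned to -0.03 with library-size scaling and lost its call without any 1 of the 4 wild-type libraries, while the Tut7-/- call held in each of 19 alternatives. Cdt1, the partner of Cdc6, was at 17.6 and 24.5 CPM in untreated wild type and at 14.6 and 14.4 after LPS without a call (-0.54 ± 0.272, adjusted p = 0.1), and fell from 49.7 and 38.3 to 24.4 and 24.7 CPM in Tut7-/- (-0.84 ± 0.251, adjusted p = 0.008). The length and GC correction turned that fall to 0.16, and the call was lost without either LPS-treated Tut7-/- library. Gins1 and Gins2, subunits of GINS, had wild-type changes of 0.26 ± 0.458 and -0.80 ± 0.476 with no call, and the fall of Gins2 in Tut7-/- (-1.55 ± 0.413) lost its call without untreated replicate 1 and with the length and GC correction, at -0.66.

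At the fork itself, the polymerase delta and epsilon genes fell while the clamp gene had no call. Pold1, the catalytic subunit of polymerase delta, was at 13.9 and 20.3 CPM in untreated wild type and 1.31 and 2.62 after LPS (-3.20 ± 0.444, adjusted p = 1.8e-05), and fell from 42.4 and 31.6 to 2.06 and 3.98 CPM in Tut7-/-. Pole, of polymerase epsilon, went from 4.51 and 6.4 to 1.09 and 0.328 CPM (-2.80 ± 0.571, adjusted p = 6.6e-04), and Prim1, the primase subunit that starts each fragment, from 4.73 and 5.08 to 0.435 and 0.655 CPM (-3.19 ± 0.698, adjusted p = 0.0012). The untreated and treated wild-type libraries did not overlap for any of these, and the share of all genes without overlap was not counted. After LPS in wild type Pole had 5 and 1 counts and Prim1 2 and 2. In Tut7-/- Prim1 fell by 1.35 ± 0.512, a call lost without untreated replicate 1 or either LPS library. Pcna, the clamp that holds the polymerases on DNA, had 259 and 192 CPM before and 282 and 278 after LPS (0.31 ± 0.241, adjusted p = 0.28). In Tut7-/- it had 320 and 204 CPM before and 364 and 336 after (0.42 ± 0.24, adjusted p = 0.13), so neither genotype gave a call. Its Tut7-/- value turned to -0.59, called lower, with the length and GC correction. Pola1, of the primase complex, also had no call, at 4.4 and 4.21 CPM before and 3.92 and 4.26 after LPS in wild type, and came to -0.87 there and -1.09 in Tut7-/-, both called lower, with the correction.

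Within the clamp loader the subunit genes moved apart. Rfc3 rose from 8.69 and 8.77 to 26.3 and 30.8 CPM in wild type (1.70 ± 0.293, adjusted p = 1.5e-04) and from 16.5 and 9.48 to 30.7 and 30.1 CPM in Tut7-/- (1.24 ± 0.28, adjusted p = 0.0011). Rfc2 and Rfc4 fell by 1.42 and 2.05 in wild type and by 1.66 and 1.41 in Tut7-/-, and Rfc5 was not called in either (-0.64 and -0.68). Both Rfc3 calls held in all 19 alternatives tried, scaling by library size included. The Rfc4 calls were lost without untreated replicate 1 or LPS replicate 1 of the same genotype.

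Of 5 genes that supply nucleotides, 4 fell in both genotypes, against 30.4% of all genes in wild type and 33.2% in Tut7-/-. Rrm2, the regulated subunit of ribonucleotide reductase, went from 14.5 and 13.6 to 1.31 and 1.31 CPM in wild type (-3.41 ± 0.441, adjusted p = 8.7e-06) and from 15.1 and 23.4 to 1.74 and 2.88 in Tut7-/-. Dut, which keeps uracil out of DNA, went from 8.58 and 7.28 to 0.653 and 0.983 CPM (-3.30 ± 0.585, adjusted p = 1.9e-04), with 3 and 3 counts left. Rrm1 and Tk1, the other reductase subunit and thymidine kinase, fell by 1.68 and 2.18 in wild type. Tyms, which makes thymidylate, went the other way, from 22 and 15.6 to 34.8 and 25.6 CPM in wild type (0.69 ± 0.267, adjusted p = 0.037) and from 11.2 and 11.9 to 28.3 and 25.7 in Tut7-/- (1.22 ± 0.269, adjusted p = 9.1e-04). With library-size scaling the wild-type value of Tyms turned to -0.14, and its call was lost without untreated wild-type replicate 2, wild-type LPS replicate 1 or either LPS-treated Tut7-/- library. The Tut7-/- call of Tyms was lost with the length and GC correction, at 0.44.

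**Figure D3:**
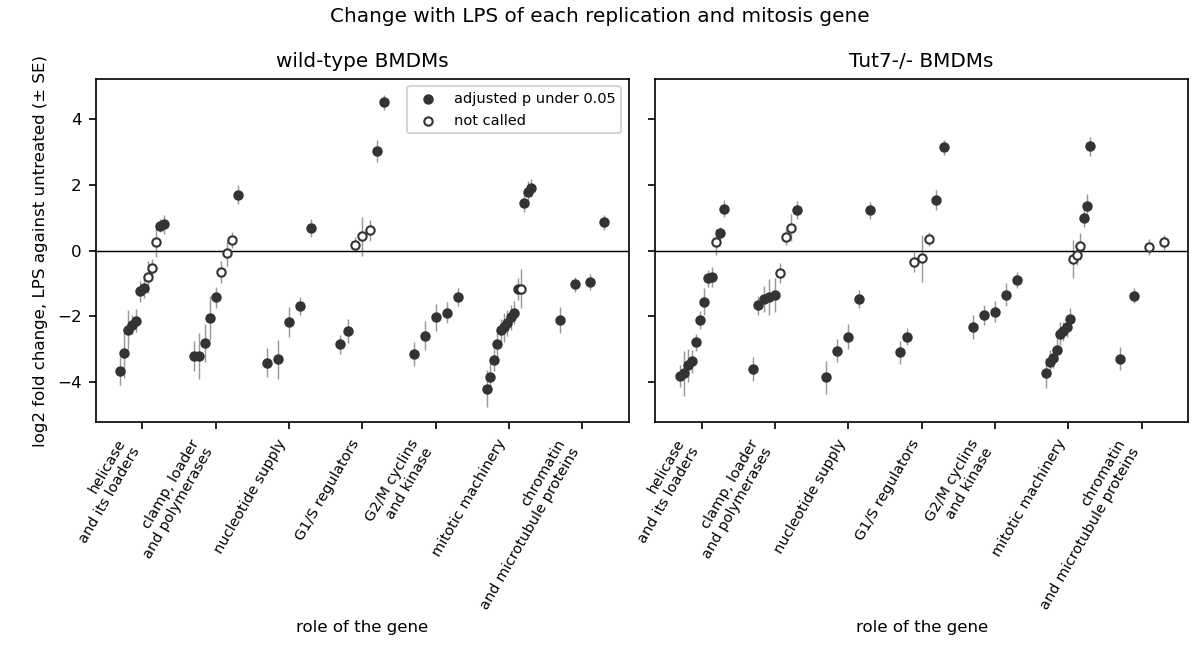
Log2 fold change with LPS (± SE) of each gene by role, in wild-type (left) and Tut7-/- BMDMs (right), with filled points for an adjusted p under 0.05. All 5 G2/M genes are below 0 in both panels, and Cdkn1a stands highest in wild type at 4.50, with Tpx2 at 3.17 just above Cdkn1a at 3.13 in Tut7-/-.

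Of the 7 G1/S regulators 2 rose, 2 fell and 3 were not called, in each genotype, shares close to or below those of all genes in each direction (27.0% higher and 30.4% lower in wild type, 34.8% and 33.2% in Tut7-/-). Cdkn1a rose from 142 and 138 CPM to 3261 and 3077 in wild type, 22.6-fold (4.50 ± 0.23, adjusted p = 2.4e-10), and from 277 and 221 to 2123 and 2236 CPM in Tut7-/-, 8.74-fold (3.13 ± 0.216, adjusted p = 6.0e-09). Ccne1 rose from 3.3 and 2.28 to 27.4 and 17 CPM in wild type (3.02 ± 0.339, adjusted p = 1.9e-06) and from 5.65 and 4.87 to 15.8 and 14.7 in Tut7-/- (1.54 ± 0.314, adjusted p = 5.0e-04). Thus an activator of Cdk2 and the inhibitor of the same kinase rose together in all 4 treated libraries. Cdk2 itself fell, from 27.1 and 29.8 to 5 and 5.57 CPM in wild type (-2.43 ± 0.365, adjusted p = 3.8e-05) and by 3.09 ± 0.358 in Tut7-/-. E2f1 fell from 33.3 and 27.7 to 3.92 and 4.59 CPM (-2.85 ± 0.299, adjusted p = 8.8e-07), and by 2.61 ± 0.258 in Tut7-/-. The gene of cyclin D1, Ccnd1, through which growth factors start G1, was at 42.4 and 58.7 CPM before and 56.8 and 57.7 after LPS in wild type (0.18 ± 0.219, adjusted p = 0.51), and the transcription factor gene Myc at 5.06 and 5.79 CPM before and 7.83 and 8.85 after (0.61 ± 0.32, adjusted p = 0.12). Neither was called, but the wild-type value of Ccnd1 was -0.66 and called lower with library-size scaling, and 0.42 and called higher with the length and GC correction, under which Myc came to 0.91 in wild type with a call. In Tut7-/- Ccnd1 was at 0.35 without a call and at 0.41 with one after the correction.

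All 5 genes of the G2/M cyclins and kinase fell in both genotypes, against 30.4% of all genes in wild type and 33.2% in Tut7-/-. Ccna2, cyclin A2, went from 26.8 and 20.8 to 3.48 and 1.64 CPM in wild type (-3.13 ± 0.366, adjusted p = 2.9e-06) and from 20.8 and 17 to 5.38 and 5.08 in Tut7-/- (-1.85 ± 0.309, adjusted p = 8.2e-05). Ccnb1, cyclin B1, went from 14.4 and 12.1 to 2.83 and 1.31 CPM in wild type (-2.59 ± 0.44, adjusted p = 1.3e-04). Foxm1, the factor that drives many mitotic genes, went from 8.8 and 14.3 to 1.74 and 4.26 CPM (-2.03 ± 0.423, adjusted p = 7.7e-04) and from 15.9 and 17.2 to 3.01 and 3.57 CPM in Tut7-/- (-2.32 ± 0.37, adjusted p = 5.2e-05). Ccnb2 and the mitotic kinase Cdk1 fell by 1.41 and 1.89 in wild type and by 0.89 and 1.95 in Tut7-/-. No treated library reached the level of an untreated one of its genotype for any of the 5 genes. The share of all genes separated in this way was not counted.

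Of the 14 genes of the mitotic machinery, 10 fell and 3 rose in wild type, and 8 fell and 3 rose in Tut7-/-. All genes gave 30.4% lower and 27.0% higher in wild type, and 33.2% and 34.8% in Tut7-/-. The share of mitotic machinery genes that rose was thus below that of all genes. Bub1b, a kinase of the spindle checkpoint, had the lowest value in wild type, from 14.5 and 18.8 to 1.52 and 0 CPM (-4.19 ± 0.553, adjusted p = 1.1e-05). With 7 and 0 counts left, the size of its fall is uncertain, at -10.09 to -2.66 over the alternatives. Aurkb, the kinase of the chromosomal passenger complex, went from 12.5 and 13.9 to 0.87 and 0.983 CPM (-3.83 ± 0.444, adjusted p = 2.6e-06), and Cenpa, the histone of centromeres, from 48.1 and 34.7 to 4.57 and 3.6 CPM (-3.31 ± 0.337, adjusted p = 6.1e-07). The same 3 genes fell by 3.72, 3.01 and 2.45 in Tut7-/-. Aurka, Plk1, Cdc20, Kif20a and Birc5, which serve spindle poles, mitotic entry, exit, cytokinesis and the passenger complex, fell by 1.88 to 2.85 in wild type and by 2.08 to 3.39 in Tut7-/-.

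The 3 mitotic genes that rose were Tpx2, Cenpe and Mki67. Tpx2, which activates Aurora A at the spindle, rose from 17.1 and 15.3 to 67 and 52.4 CPM in wild type (1.89 ± 0.273, adjusted p = 2.7e-05) and from 6.15 and 11 to 75.8 and 80.6 in Tut7-/- (3.17 ± 0.286, adjusted p = 1.2e-07). Cenpe, a kinetochore motor, rose from 4.95 and 3.51 to 13.5 and 15.4 CPM in wild type (1.77 ± 0.347, adjusted p = 4.6e-04). Mki67, the source of the Ki-67 proliferation marker, rose from 22.8 and 16.4 to 54.4 and 50.8 CPM in wild type (1.43 ± 0.259, adjusted p = 2.4e-04) and from 9.34 and 12 to 22.9 and 19.4 CPM in Tut7-/- (0.98 ± 0.267, adjusted p = 0.0044). Mki67 and Cenpe thus went up where nearly all other mitotic genes went down. Their Tut7-/- values turned to -0.32 and -0.51 with the length and GC correction, and both calls there were lost without LPS replicate 1. The wild-type call of Mki67 was lost with library-size scaling, at 0.60. So were the Tut7-/- calls of Mki67, at 0.41, and of Cenpe, at 0.79. Fits of log2 RPKM with limma lost these calls too, and with 0.1 added also the wild-type call of Cenpe. Top2a, which untangles sister DNAs and is often read beside Ki-67, instead fell from 39.6 and 25.2 to 15.4 and 13.1 CPM in wild type (-1.17 ± 0.327, adjusted p = 0.0065), a call lost without untreated wild-type replicate 1 or wild-type LPS replicate 2. In Tut7-/- its change of -0.12 was not called, and came to -1.79 with a call after the length and GC correction.

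The chromatin genes included both directions. Hmgb1 and Hmgb2, close relatives that bend DNA, differed: Hmgb1 fell from 202 and 145 to 105 and 72.1 CPM in wild type (-0.96 ± 0.239, adjusted p = 0.003), a call lost without wild-type LPS replicate 2, and Hmgb2 rose from 50.5 and 35.9 to 83.1 and 72.7 (0.86 ± 0.233, adjusted p = 0.0056). The Hmgb2 call was lost with library-size scaling, at 0.03, with the length and GC correction, at 0.16, and without untreated wild-type replicate 2 or wild-type LPS replicate 1. In Tut7-/- neither was called, with changes of 0.11 ± 0.237 and 0.25 ± 0.236. The length and GC correction turned both below 0, Hmgb2 to -1.30, and both were then called lower. Uhrf1, which passes on DNA methylation at the fork, fell from 11.6 and 14.9 to 2.39 and 3.93 CPM in wild type (-2.11 ± 0.387, adjusted p = 2.6e-04), and Stmn1, which takes microtubules apart, from 109 and 77.3 to 47.6 and 43.9 CPM (-1.02 ± 0.232, adjusted p = 0.0015).

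On the per-length RPKM scale the order of the 56 RNAs differed between treated and untreated cells. In untreated wild type the highest means were Pcna at 247, Stmn1 at 121, Cdkn1a at 99.8 and Hmgb1 at 78.7 RPKM, and the lowest was Cenpe at 0.745. After LPS Cdkn1a led at 1276 RPKM, with Pcna at 174 and Stmn1 at 33.8, and Cdc6 was lowest at 0.0657. The median over the set was 8.42 and 8.04 RPKM in the untreated wild-type libraries, 1.35 and 1.78 after LPS, 8.7 and 9.14 in untreated Tut7-/- and 1.73 and 1.71 in Tut7-/- with LPS. These values carry no TMM factor.

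The remaining genes of the same pathways, not among the 56, were taken from lists by function. Of 37 other replication factors tested 22 fell and 2 rose with LPS in wild type (median -1.17). Of 48 other mitosis genes 33 fell and 2 rose (median -1.97), and of 18 other nucleotide enzymes 8 fell and 2 rose (median -0.78). Among all genes tested 30.4% fell and 27.0% rose. Kif22 and Kif23, a chromosome motor and a midzone motor, fell most among the mitosis genes: Kif22 from 13.5 and 9.91 to 0.218 and 0.655 CPM, 29.4-fold lower (exact 95% interval 9.92 to 143), and Kif23 from 13.6 and 10.9 to 0.435 and 0.983 CPM. Pttg1, securin, and Trip13, a checkpoint ATPase, rose by 2.32 ± 0.245 and 2.30 ± 0.303. Among the replication factors Timeless, of the fork protection complex, rose by 2.75 ± 0.277 and the origin protein gene Orc4 by 1.64 ± 0.275, while Recql4 had 14 and 37 counts before and none after LPS, at least 6.34-fold lower with 3 counts over both libraries as the floor, and Pole2 had 44 and 47 counts before and 0 and 2 after, 17-fold lower (exact 95% interval 4.57 to 142). Among the nucleotide enzymes Dck and Cmpk1, kinases of salvage and of pyrimidine nucleotides, rose by 2.30 ± 0.257 and 0.63 ± 0.225, and Shmt1 and Dctd were 8.21-fold (1.33 to 339) and 5.6-fold (1.42 to 48.3) lower with 1 and 2 counts left. In Tut7-/- the lists gave 22 lower and 5 higher, 28 lower and 5 higher, and 12 lower and 3 higher, in the same order. Of all genes 33.2% were lower and 34.8% higher there.

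Genes that act before S phase were counted in the same way. Of 26 tested genes for D cyclins, their kinases, CDK inhibitors and pocket proteins, 10 fell and 6 rose in wild type (median -0.68) and 12 fell and 8 rose in Tut7-/-, where the shares that rose were close to the 27.0% and 34.8% of all genes. Ccnd2, cyclin D2, rose from 5.39 and 5.7 to 1150 and 1049 CPM (7.63 ± 0.284, adjusted p = 1.2e-11), and Rbl1, the pocket protein p107, from 14.5 and 15.7 to 185 and 144 CPM (3.44 ± 0.265, adjusted p = 2.6e-08). E2f2 had 157 and 221 counts before and none after LPS, at least 47-fold lower, and E2f7 27 and 26 counts before and none after, at least 6.59-fold lower, both with 3 counts over the 2 treated libraries as the floor. Of 18 p53 targets and growth-arrest genes 8 rose and 5 fell in each genotype (wild-type median 0.29), and the share that fell was close to the 30.4% and 33.2% of all genes. The Myc antagonist Mxd1 rose by 5.15 ± 0.288 and Gadd45b, a stress gene, by 4.17 ± 0.226, while another Myc antagonist, Mnt, fell by 4.26 ± 0.328 and Sesn1, a p53 target, went from 2404 and 2768 counts to 1 and 1, 965-fold lower (exact 95% interval 267 to 7971). In Tut7-/- E2f7 had 15 and 36 counts before and none after LPS, at least 11.9-fold lower.

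Without LPS, some replication genes were called higher in Tut7-/- than in wild-type BMDMs. Most of these calls were lost with library-size scaling or with the length and GC correction, as given below. Of the 56 genes, 16 were higher and 6 lower at an adjusted p under 0.05, against 14.8% and 22.2% of all genes, with medians of 0.32 for the set and 0.01 for all genes. Higher were Mcm2, Mcm3, Mcm5, Mcm7, Cdt1, Gins2, Pold1 and Tk1 among the replication genes, Ccne1, E2f1, Ccnd1 and Cdkn1a among the G1/S regulators, Aurka, Plk1 and Cdc20 among the mitotic genes, and Uhrf1. Lower were Pola1, Mki67, Top2a, Kif11, Tpx2 and Hmgb1. The calls of Mcm5 and Plk1 held in each of 18 alternatives. Those of Gins2, Ccne1 and Aurka were kept in 1 of 8 fits with a library left out, the one without untreated Tut7-/- replicate 2, and DESeq2's Wald test did not call Aurka. That of Ccnd1 was kept in 3 of 8, and was lost without untreated wild-type replicate 1 or any 1 of the LPS-treated libraries. The calls of Mcm7, Cdc20 and Tpx2 were lost without either untreated wild-type library or untreated Tut7-/- replicate 1, those of E2f1 and Pola1 without either untreated wild-type library, and that of Tk1 without untreated wild-type replicate 2 or untreated Tut7-/- replicate 1. Without untreated wild-type replicate 1, Mcm2, Cdt1, Pold1, Uhrf1, Top2a and Mki67 lost theirs, Mki67 also without untreated Tut7-/- replicate 1. None of the 5 G2/M cyclin and kinase genes was called, by edgeR or by DESeq2, and 0 of them had an unadjusted p under 0.05. Of all 11501 genes 7242 had no call either. With the length and GC correction Ccnb1 was called higher, at 0.96 (adjusted p = 0.019).

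Of the 12 helicase and loader genes 6 were higher, against 14.8% of all genes. Mcm5 was at 24.5 and 26.6 CPM in wild type and 88.4 and 52.4 in Tut7-/- (1.46 ± 0.269, adjusted p = 0.0015). Mcm3 was at 25.5 and 29.9 against 63.2 and 56.1 CPM (1.10 ± 0.235, adjusted p = 0.0033), and Mcm2 at 14.9 and 17.7 against 37.7 and 28.3 (1.01 ± 0.269, adjusted p = 0.011). In all 3 both Tut7-/- libraries were above both wild-type ones, and how many of all genes were likewise separated was not counted. Cdt1 was at 17.6 and 24.5 against 49.7 and 38.3 CPM (1.06 ± 0.25, adjusted p = 0.0057), Pold1 at 13.9 and 20.3 against 42.4 and 31.6 (1.11 ± 0.304, adjusted p = 0.012) and Tk1 at 14.7 and 10.6 against 37.7 and 21.8 (1.23 ± 0.337, adjusted p = 0.012). Plk1, at 12.1 and 12.3 against 32.9 and 26 CPM (1.27 ± 0.263, adjusted p = 0.0027), and Uhrf1, at 11.6 and 14.9 against 32.2 and 27.7 (1.17 ± 0.291, adjusted p = 0.0074), were higher by a like amount. Cdkn1a was at 142 and 138 against 277 and 221 CPM (0.83 ± 0.201, adjusted p = 0.0066), E2f1 at 33.3 and 27.7 against 55.1 and 48.2 (0.76 ± 0.232, adjusted p = 0.021) and Ccnd1 at 42.4 and 58.7 against 83.9 and 78.1 (0.68 ± 0.214, adjusted p = 0.024).

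Among the 6 lower genes, Kif11, the motor that pushes spindle poles apart, was at 10.9 and 9.38 CPM in wild type and 2.7 and 3.01 in Tut7-/- (-1.81 ± 0.355, adjusted p = 0.002). Hmgb1 was at 202 and 145 against 76.5 and 77.8 CPM (-1.17 ± 0.237, adjusted p = 0.0024), and Pola1 at 4.4 and 4.21 against 1.84 and 1.68 (-1.28 ± 0.372, adjusted p = 0.016). Mki67, at 22.8 and 16.4 against 9.34 and 12 CPM (-0.87 ± 0.264, adjusted p = 0.02), and Top2a, at 39.6 and 25.2 against 15.4 and 16.9 (2-fold, adjusted p = 0.021), were lower without overlap between the groups. How common such separation was over all genes was not counted. Mki67 and Top2a turned positive, to 0.14 and 0.12, once transcript length and GC content were corrected for, and Kif11, Hmgb1 and Pola1 came to -0.69, -0.12 and -0.08 without a call. Myc, Foxm1, Pcna and Hmgb2 had no call in this comparison, with values of 0.31, 0.51, 0.22 and -0.60.

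Both GC content and length of the transcripts moved with this difference. Over the 56 genes the log2 fold change had a Spearman correlation of 0.85 with GC content and of -0.38 with length, and over 11274 tested genes of 0.69 and -0.33, where genes of the same libraries share their depth and base composition. The 16 higher genes had a median GC content of 53.9% and length of 2379 bases, and the 6 lower genes 42.8% and 5179 bases, against 50.2% and 2907 bases over all genes. Fitted within each library, length and GC content had an R2 of 0.356 and 0.244 in the untreated Tut7-/- pair and of 0.00633 to 0.152 in the others. After the correction 13 genes were higher and 0 lower, Mcm2, Mcm3, Mcm5, Pold1, Ccnd1, Plk1 and Uhrf1 remaining and Mcm6, Pcna, Rrm1, Rrm2, Ccnb1 and Birc5 joining. With library-size scaling 5 were higher and 8 lower. Of the genes that remained after the correction, Mcm2, Pold1, Ccnd1 and Uhrf1 lost their calls with this scaling (adjusted p = 0.067, 0.089, 0.23 and 0.054). Mcm3, Mcm5 and Plk1 kept theirs. Without untreated wild-type replicate 1 there were 7 calls, without untreated Tut7-/- replicate 1 there were 14 and without its replicate 2 there were 34, against 22 with all libraries, and 13 when the 4 untreated libraries were fitted alone. Stromal markers summed to 30.2 and 32.1 CPM in untreated Tut7-/- against 78.7 and 86.8 in wild type. Macrophage markers summed to 27222 and 39209 CPM against 20163 and 20400. Dendritic cell markers summed to 67.4 and 81.2 CPM against 27.6 and 28, but only 2 of the 7 passed the filter. These 2 went opposite ways, at 1.48 with a call and -1.95 without one. The part of all these markers was not tested.

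**Figure D4:**
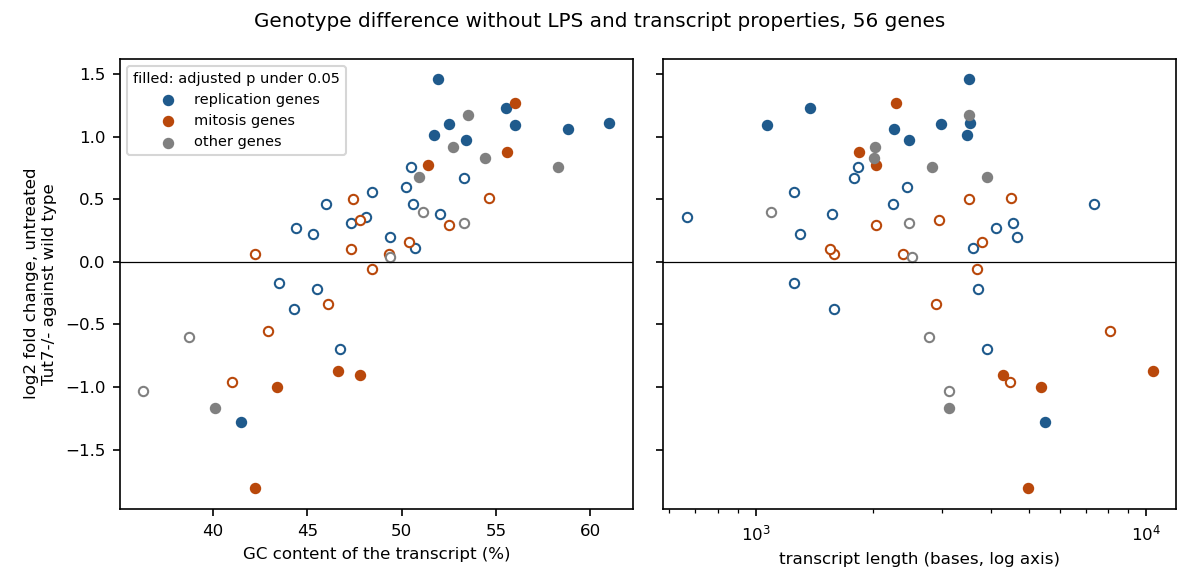
Log2 fold change between untreated Tut7-/- and wild-type BMDMs for each of the 56 genes against the GC content (left, %) and length (right, bases, log axis) of its transcript, with filled points for an adjusted p under 0.05. The points climb with GC content (Spearman 0.85) and fall with length (-0.38).

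After LPS, 2 of the 56 genes were called between the genotypes. Changes over the set ran from -1.70 to 1.79, with a median of 0.33 against 0.10 over all genes. Mki67 was at 54.4 and 50.8 CPM in wild type and 22.9 and 19.4 in Tut7-/- (-1.32 ± 0.262, adjusted p = 0.02), and Hmgb2 at 83.1 and 72.7 against 35 and 32.8 (-1.20 ± 0.238, adjusted p = 0.02). The groups did not overlap for either gene, and the share of all genes without overlap was not counted. Of all genes, 0.774% were called lower and 0.626% called higher. No member was called higher by edgeR or by DESeq2, while 9 had an unadjusted p under 0.05 with a higher level (Mcm7, Cdt1, Pole, E2f1, Ccnd1, Ccna2, Ccnb1, Plk1 and Cenpa) and 6 with a lower one. These 15 of 56 genes stand beside 1480 of all 11501 with an unadjusted p under 0.05. Ccnd1, at 56.8 and 57.7 CPM in wild type and 102 and 105 in Tut7-/-, missed the threshold (0.86 ± 0.22, adjusted p = 0.069), as did Cdkn1a, at 3261 and 3077 against 2123 and 2236 (-0.54 ± 0.199, adjusted p = 0.24).

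Both calls were lost when any 1 of the 4 LPS-treated libraries was left out and when libraries were scaled by size alone, and held with both untreated Tut7-/- libraries left out, where 5 genes were called. There were 4 calls without untreated Tut7-/- replicate 1, 6 without its replicate 2 and 7 when the 4 LPS-treated libraries were fitted alone. With the length and GC correction 4 genes were called, 1 higher and 3 lower, as Ccnd1 (0.69) and Cdkn1a (-0.73) joined Mki67 and Hmgb2. Stromal markers summed to 105 and 112 CPM in wild type with LPS and to 25.9 and 26.9 in Tut7-/- with LPS, and their part was not tested.

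The test of whether the genotypes differ in their LPS response called Cdkn1a and Kif11. Cdkn1a rose 22.6-fold in wild type and 8.74-fold in Tut7-/-, a difference of -1.37 ± 0.283 on the log2 scale (adjusted p = 0.022). Its untreated level was higher in Tut7-/- with a call, and its level after LPS was lower without one. Kif11 fell from 10.9 and 9.38 to 1.31 and 2.95 CPM in wild type (-2.33 ± 0.437) but stayed at 2.7 and 3.01 before and 2.53 and 3.71 after LPS in Tut7-/- (0.13 ± 0.401), a difference of 2.46 ± 0.603 (adjusted p = 0.037). With the length and GC correction Kif11 fell with a call in Tut7-/- too, to a change of -1.55 against -3.05 in wild type. The other 3 groups thus had Kif11 between 1.31 and 3.71 CPM. Of all genes, 4.06% had a more positive response in Tut7-/- and 0.435% a more negative one.

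The call for Cdkn1a held in 11 of 17 alternatives, all 6 losses being fits without a wild-type or an LPS-treated Tut7-/- library. That for Kif11 held in 7 of 15 and was lost in the same 6 fits and with DESeq2 size factors or the length and GC correction. Its difference was between 1.39 and 3.06 over all 15. The split was then 0 higher and 1 lower with the size factors, 2 higher and 1 lower with library size, and 0 higher and 4 lower (Mcm6, Cdkn1a, Mki67 and Hmgb2) with the correction. Without untreated Tut7-/- replicate 2 there were 9 calls. Next without a call were Tpx2 (1.28 ± 0.382, adjusted p = 0.064), Mcm2 (-1.68 ± 0.504, adjusted p = 0.065), Ccne1 (-1.48 ± 0.459, adjusted p = 0.072) and Hmgb1 (1.08 ± 0.336, adjusted p = 0.074).

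**Figure D5:**
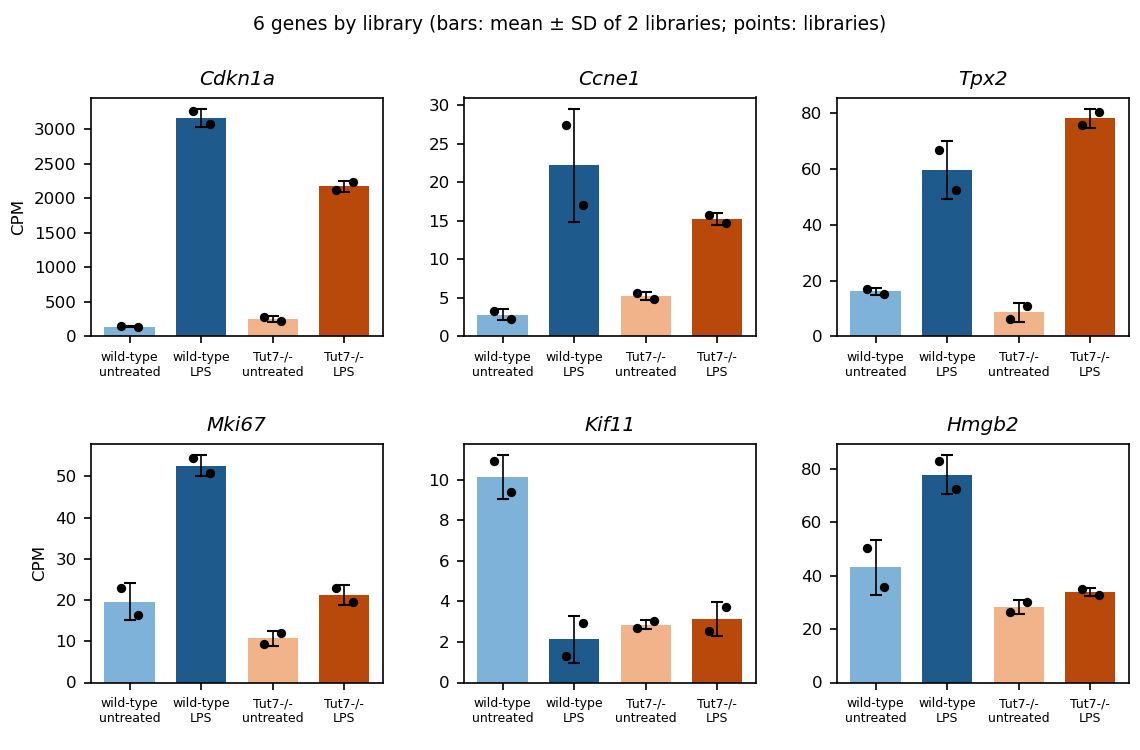
CPM of 6 genes in the 4 groups, with bars for the mean, error bars for the SD of 2 libraries and a point for each library. Cdkn1a reaches 3261 and 3077 CPM in wild type and 2123 and 2236 in Tut7-/- with LPS, Tpx2 is higher with LPS in both, Mki67 and Hmgb2 are highest in wild type with LPS, and Kif11 is high in untreated wild type alone.

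Reads of some of these genes cannot be assigned with certainty. The span of 10 of the 56 genes overlaps another tested gene, and no source used here says that strand was used in counting, so reads from the shared bases cannot be told apart. The longest stretches shared with tested genes are 5622 bases of Ccne2 with Ints8, 4930 bases of Kif20a with Cdc23 and 863 bases of Ccna2 with Exosc9. Pseudogene symbols of Hmgb1, Stmn1 and Tyms stand in the table, and the levels of these 3 genes are uncertain where reads fit both copies.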

How the data were processed

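RNA from 8 BMDM libraries (poly-dT selection, random primers, paired-end reads) was mapped by the authors with FANSe3 to mouse RefSeq RNA (mm10, per the labels and the methods), and the authors used edgeR, version not given in the sources used here. The deposited table holds raw read counts per gene symbol and RPKM, reads scaled by library size and transcript length, which the authors computed without TMM factors. A second sheet with the same RPKM values was not used.

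Counts were fitted with edgeR 4.0.16 (R 4.3.3, filterByExpr, TMM, robust quasi-likelihood fit, 1 coefficient per group, 4 residual degrees of freedom, biological coefficient of variation 18.5%), tested on simulated data first. A call is an adjusted p under 0.05 over 11501 genes. The SE after ± is approximate: the size of the log2 fold change over the square root of the quasi-likelihood F statistic. Library totals of 3767900 to 9394632 limit precision for genes of a few counts, and intervals and floors cover counting error only. Alternatives were DESeq2 1.42.0 (size factors, Wald test), library-size scaling, other filters, limma 3.58.1 on log2 RPKM with 1 or 0.1 added, a correction for length and GC content of transcripts, a replicate block, fits of only the compared libraries and each library left out.

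The 56 genes and all lists were chosen with earlier results of these data known. Values per library are given for called genes with the lowest and highest LPS changes in each role, for the smallest p in the genotype tests, and for 10 genes whatever their values. Sequences are from RefSeq GRCm38.p6, and figures were drawn with matplotlib 3.10.9 (Python 3.11.15).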

Additional observations from a re-analysis of the deposited data

Results flagged for a closer look

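The LPS response of 2 of the 56 genes differed between the genotypes by the interaction test in edgeR. For Cdkn1a the difference, Tut7-/- minus wild type, was -1.37 on the log2 scale (adjusted p = 0.022), with a smaller rise in Tut7-/-. For Kif11 it was 2.46 (adjusted p = 0.037), with a fall called in wild type and none in Tut7-/-. After the length and GC correction the fall was called in both genotypes, at -3.05 and -1.55, and the difference was not called. Both calls were lost without any 1 of the wild-type or LPS-treated Tut7-/- libraries.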

How the results depend on the processing

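Of 1413 values of 77 named results under the alternatives, 1279 kept direction and side of the threshold, 117 kept direction without the call and 17 reversed. With library-size scaling, limma with 1 added and limma with 0.1 added, the wild-type LPS value of Mcm6 was -0.08, -0.07 and -0.07, of Mcm10 -0.03, -0.01 and -0.01, and of Tyms -0.14, -0.12 and -0.13, and the Tut7-/- value of Mcm6 -0.05, -0.0025 and -0.0022. With the length and GC correction Mcm6, Mki67 and Cenpe had Tut7-/- LPS values of -0.23, -0.32 and -0.51, and Mki67 and Top2a untreated genotype values of 0.14 and 0.12. The cause was not tested.

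With at least 10 counts in every library, which tests fewer genes, 27 genes were called with LPS in each genotype. For untreated genotypes, 13 were called with library-size scaling, 12 with limma and 0.1 added, 13 with the correction and 13 with 4 libraries. With LPS, the genotypes gave 0 calls with library-size scaling (edgeR), 1 with either limma fit, 4 with the correction, 7 with 4 libraries and 5 without the untreated Tut7-/- pair, an alternative chosen after seeing the data. The interaction gave 1 call with DESeq2 size factors, 6 without a filter, 1 with the 10-count filter, 5 with limma and 1 added and 4 with the correction. Leaving out 1 library gave 41 to 48 calls for LPS in wild type, 37 to 44 in Tut7-/-, 7 to 34 for untreated genotypes, 0 to 6 with LPS and 0 to 9 for the interaction.

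With the replicate number as a block, 46, 44, 23, 2 and 2 genes were called in these 5 comparisons. The difference between the replicates of a group, taken gene by gene, correlated between groups at -0.257 to 0.363. These few values cannot decide whether the replicate numbers pair the libraries. Crossing the numbers of the LPS-treated Tut7-/- libraries, chosen after seeing the data, gave 45.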
